A study of Olea europaea with 12 samples.

Results

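The comparison described here set the flesh of olive fruits at 26 weeks after flowering (WAF) against the flesh at 21 WAF. It rests on 6 RNA-seq libraries of fruit mesocarp, 3 per age, from a series of 12 libraries that also covers 17 and 30 WAF. All groups were untreated Olea europaea fruits of Koroneiki, a cultivar of Greece pressed for oil. The trees grew in a field in Western Greece under local farming practice. Sample labels give age as the difference between groups. The library names begin with Oct at 21 WAF and with Nov at 26 WAF, so age and calendar month cannot be told apart for any gene below. The labels give no hour of sampling, so a difference in hour cannot be told apart from age either, for any gene. The genes compared were those with at least 1 FPKM in at least 3 of the 12 libraries, which kept 26131 of 51008 genes in the table. FPKM is the number of sequenced fragments scaled for transcript length and library total. A gene could pass through a high level at 1 age only, so counts below refer to the genes tested and not to all genes of a list. The summed FPKM of a list cover all its genes in the table, tested or not. Each gene was tested with limma on log2(FPKM + 1), and a log2 difference below is always 26 minus 21 WAF on that scale, on which changes of weakly expressed genes look smaller than they are. A gene is said to have risen or fallen where its adjusted p was under 0.05. Library values are given in the order A, B and C, and means carry the SD of 3 libraries (n = 3). Where libraries of both ages are said not to overlap, this describes the gene and adds no support to its test. The share of all tested genes without overlap was not counted, and the largest rises and falls named below had to meet this condition. The labels do not say whether the letters mark separate trees, so the p-values reflect no more than how these samples scatter, and that scatter may be technical. Since whole flesh was sequenced, fewer cells of a type and less RNA per cell cannot be told apart for any gene named below.

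The olive is a drupe: a thin skin surrounds an oily flesh, and the flesh surrounds a woody stone with the seed. During maturation the flesh stores triacylglycerol, its cell walls loosen, chlorophyll is lost and anthocyanins colour the skin and then the flesh purple. Olive flesh also holds bitter secoiridoids such as oleuropein, and ripening in this species is usually classed as non-climacteric, without the burst of ethylene known from tomato.

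Of the 26131 genes tested, 6064 (23.2%) were higher and 8602 (32.9%) lower at 26 WAF, so 56.1% were called in either direction. With such shares a list of genes usually holds both rises and falls, and the counts of lists below are to be read against 23.2% and 32.9%. These shares hold for FPKM as deposited and the filter above. A list count under another setting is to be read against the counts of all genes under that setting. With a mean of at least 5 FPKM, 4811 genes were higher and 5905 lower of 16697 tested. The counts for the other settings are given near the end. The typical difference was small: the median log2 difference was -0.06 and the median size without sign was 0.21. Differences of at least 1 on the log2 scale were found for 493 genes that rose and 333 that fell, and differences of at least 2 for 71 and 15. The strongest changes were thus more often rises, while falls were more numerous overall. This split depends on the scaling: 41.3% of the called genes were higher with FPKM as deposited, against 53.4% with median-of-ratios scaling, which left 7643 genes higher and 6673 lower. Taken over the genes, which do not count as replicates, Pearson's r of log2(FPKM + 1) was 0.992 to 0.996 between libraries of 1 age and 0.971 to 0.972 between libraries of 21 and 26 WAF. Read depth is unknown, and FPKM summed to between 805874 and 840404 in the 6 libraries.

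**Figure D1:**
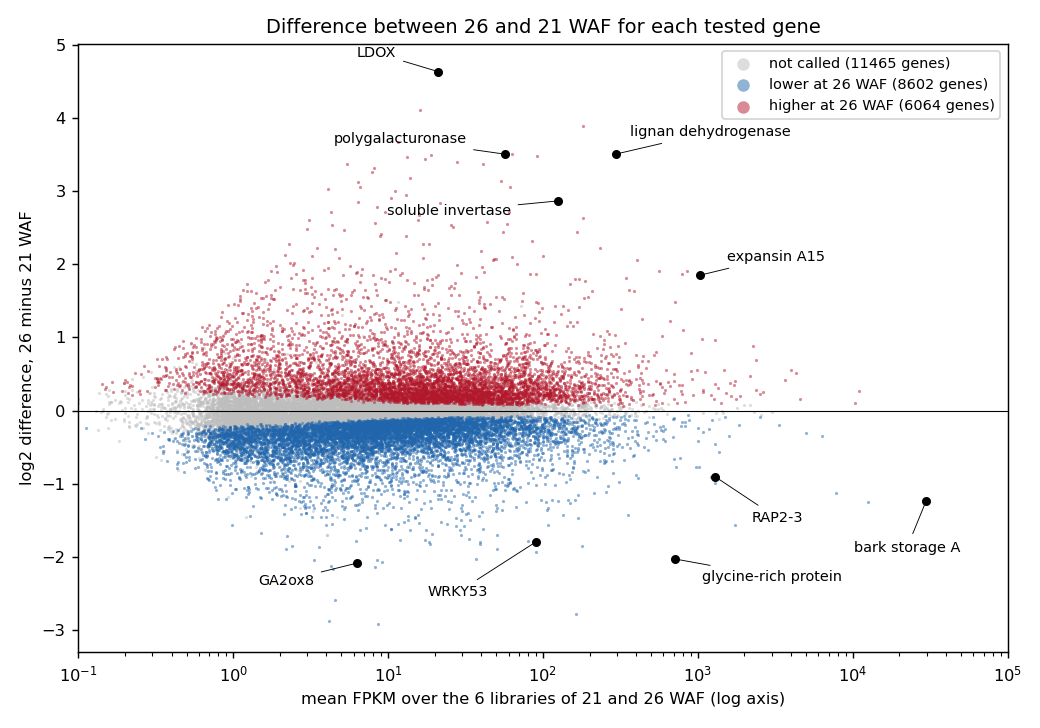
Each point is a tested gene, placed by its mean FPKM over the 6 libraries (log axis) and by its log2 difference (26 minus 21 WAF), with red for the 6064 higher, blue for the 8602 lower and grey for the 11465 genes not called. The labelled genes are described in the text, from leucoanthocyanidin dioxygenase (LDOX) at 4.64 to a glycine-rich RNA-binding protein gene at -2.03.

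Before the pathways, the markers of neighbouring tissues were read, because the dissected flesh can carry skin, stone or seed. Genes of epidermal identity were lower at 26 WAF. Of the 14 tested genes for HD-ZIP IV factors, homeodomain proteins that specify the epidermis in Arabidopsis, 10 fell and 1 rose, and the list summed to 252 to 259 FPKM at 21 WAF and 171 to 174 FPKM at 26 WAF. An ANTHOCYANINLESS 2 gene (LOC111410766) had 22.4, 25.3 and 22.4 FPKM at 21 WAF and 8.24, 8.13 and 7.84 FPKM at 26 WAF (log2 difference -1.42, SE 0.051, adjusted p = 1.9e-10). All libraries of 26 WAF lay below all libraries of 21 WAF. Of 38 tested cuticle and wax genes, 20 fell and 8 rose. All cuticle and wax genes in the table together summed to 1011 to 1040.0 FPKM at 21 WAF and 801 to 806 FPKM at 26 WAF. They include 3-ketoacyl-CoA synthases, which elongate the very long acyl chains of waxes, and the largest fall among them, in a 3-ketoacyl-CoA synthase 11 gene (LOC111374909), was from 40.9, 44.5 and 44.9 to 15.4, 18.2 and 14.8 FPKM (log2 difference -1.38, SE 0.066, adjusted p = 2.7e-09). A fatty acyl-CoA reductase 3 gene (LOC111391318) went the other way, from 6.29, 6.89 and 8.34 to 18.1, 18.7 and 17.5 FPKM (log2 difference 1.23, SE 0.070, adjusted p = 1.5e-08). Under median-of-ratios scaling 10 HD-ZIP IV genes still fell and 2 rose, and 17 cuticle genes fell and 9 rose. At 0 in all 6 libraries were an HDG11 and a PROTODERMAL FACTOR 2 gene, and among cuticle genes 7, including a SHINE 2 gene.

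Markers of the stone, the seed and the phloem did not move in 1 common direction. Of 39 tested genes for lignin and secondary walls, which mark stone and vessels, 13 (33.3%) rose and 14 (35.9%) fell. Among all tested genes 23.2% rose and 32.9% fell. All genes of this list in the table summed to 804 to 839 FPKM at 21 WAF and 998 to 1040.0 FPKM at 26 WAF. With median-of-ratios scaling the counts were 13 and 12. A caffeic acid 3-O-methyltransferase gene (LOC111397542), for an enzyme that methylates lignin precursors, had 183, 174 and 168 FPKM at 21 WAF and 474, 449 and 456 FPKM at 26 WAF (log2 difference 1.39, SE 0.033, adjusted p = 3.4e-12). Its gain was larger than that of the list's sum. In contrast, a cinnamoyl-CoA reductase 1 gene (LOC111392506), for an enzyme at the entry of the monolignol branch, fell from 52.5, 52.5 and 51.02 to 15.3, 13.9 and 14.8 FPKM (log2 difference -1.76, SE 0.057, adjusted p = 6.9e-11). The libraries of both ages did not overlap for either gene. At 0 in all 6 libraries were 12 genes of this list, among them the xylan synthesis gene IRX9 and a laccase 4 gene. Summed seed storage protein genes were at 155 to 156 FPKM and then 162 to 165 FPKM, with 4 of 6 tested genes higher and 2 lower (1 lower without library B or C of 21 WAF or A or C of 26 WAF), and a 2S albumin and a 2S sulfur-rich storage protein gene were at 0 throughout. Phloem proteins summed to 40.7 to 42.5 FPKM and then 28.2 to 29.4 FPKM, with 2 of 4 tested genes lower and a PHLOEM PROTEIN 2-LIKE A5 gene at 0. The part of skin, stone, seed or phloem RNA in the results below was not tested.

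Storage protein transcripts, the most abundant of the flesh, fell strongly. Bark storage proteins are vegetative proteins that hold nitrogen, named after the bark of poplar, where they were found. The 4 genes with this description together made up 7.09 to 7.21% of all FPKM at 21 WAF and 3.05 to 3.08% at 26 WAF. The first of them (LOC111384066) was the most abundant gene at both ages, with 42656, 41569.6 and 41179.8 FPKM at 21 WAF and 17641, 17734 and 17771 FPKM at 26 WAF (log2 difference -1.24, SE 0.029, adjusted p = 2.9e-12). Its mean was 2.36-fold higher at 21 WAF than at 26 WAF. For the other (LOC111399394) the values were 17929.6, 17427 and 17255 FPKM at 21 WAF and 7464, 7118 and 7595 FPKM at 26 WAF (log2 difference -1.25, SE 0.033, adjusted p = 1.2e-11). Every library of 26 WAF lay far below the lowest of 21 WAF for both genes, and the first gene was lower still at the outer ages, with means of 5417 FPKM at 17 WAF and 4539.7 FPKM at 30 WAF. The remaining 2 tested genes of the list were not called, and 1 of them was higher under median-of-ratios scaling or without library A of 21 WAF. Since near-identical copies can share reads, the split between both genes is uncertain.

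Of 2 abundant genes annotated as uncharacterized, LOC111398635 fell from 11499, 10169.8 and 10522 to 5117, 4544 and 5106 FPKM (log2 difference -1.12, SE 0.052, adjusted p = 2e-09), and LOC111398633 from 7454, 7065 and 6839 to 5865, 5091 and 5874 FPKM (log2 difference -0.35, SE 0.053, adjusted p = 0.00012). In neither gene did the libraries of the ages overlap. A metallothionein 1 gene (LOC111369652), for a small metal-binding protein, rose from 9918, 9932 and 10205 to 11929, 11988 and 12292 FPKM (log2 difference 0.27, SE 0.037, adjusted p = 4.5e-05). The rise of a cyclophilin gene, peptidyl-prolyl cis-trans isomerase 1 (LOC111410563), was from 3841, 3479 and 3288 to 5395, 4439 and 5288 FPKM (log2 difference 0.51, SE 0.068, adjusted p = 3.8e-05). The metallothionein and cyclophilin genes kept separate ranges at both ages. An SRC1 gene (LOC111387830) fell from 5821, 5610.1 and 5062 to 4594, 4009 and 4681 FPKM (log2 difference -0.31, SE 0.067, adjusted p = 0.0015), and a gene for a putative defensin-like protein 179 (LOC111386030) fell from 3720.3, 3514 and 3499 to 3258, 2921 and 3205 FPKM (log2 difference -0.19, SE 0.044, adjusted p = 0.0021). The call of the defensin-like gene was lost with median-of-ratios scaling, and those of the metallothionein and SRC1 genes without the filter on low values. Kirola (LOC111410001), a relative of the birch pollen allergen, stood at 4343 ± 52.7 FPKM at 21 WAF and 4851 ± 89.9 FPKM at 26 WAF (log2 difference 0.16, SE 0.026, adjusted p = 0.00022), with its call also lost without the filter.

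**Figure D2:**
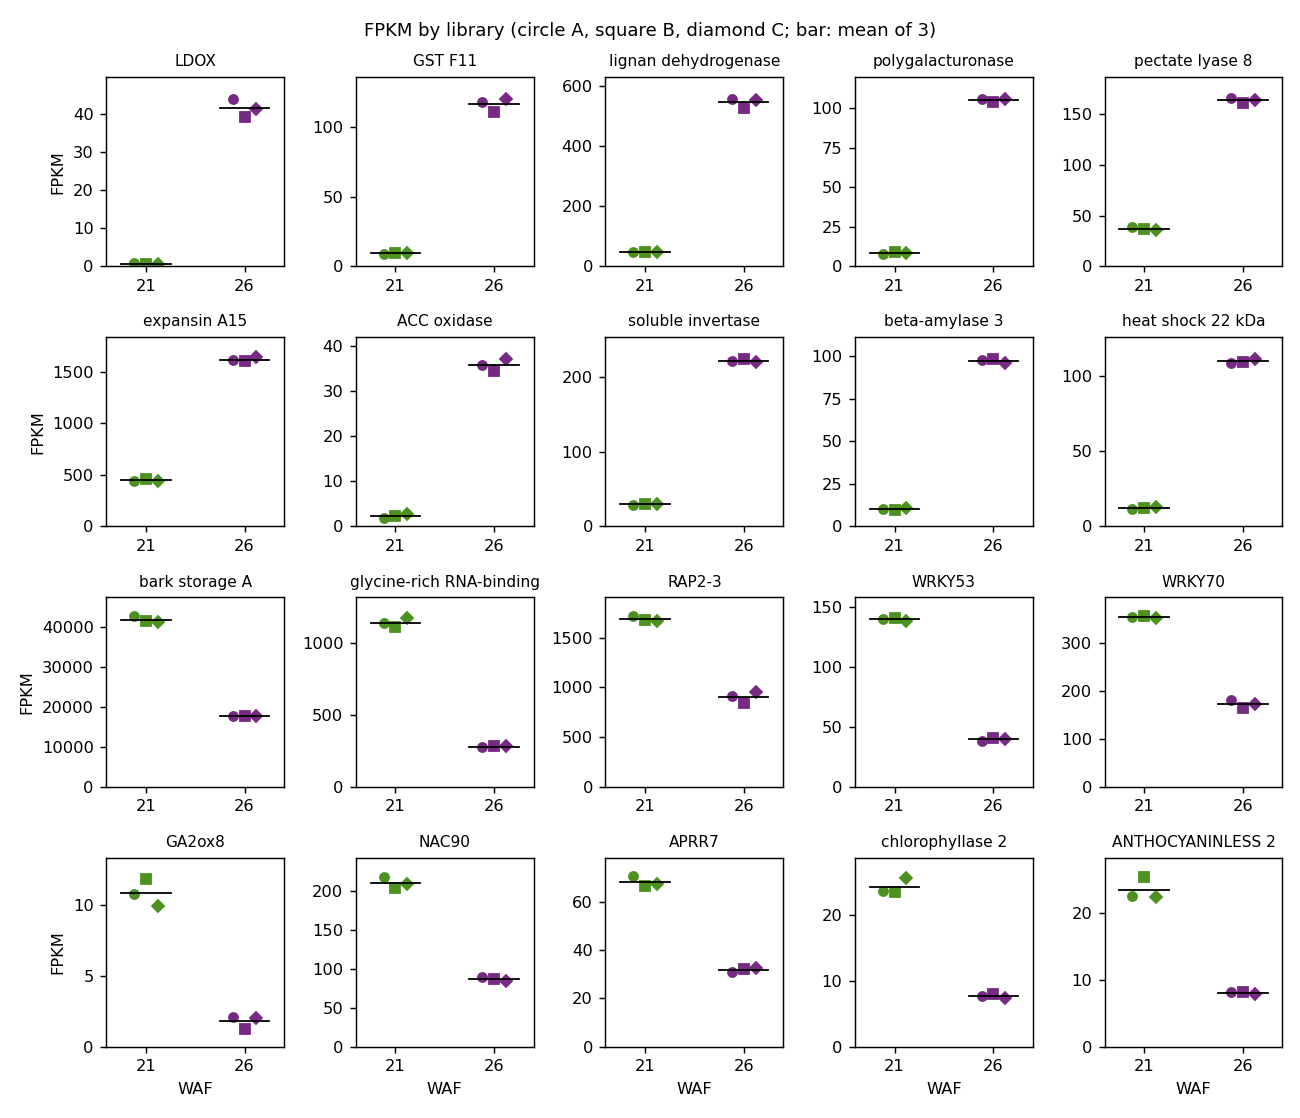
FPKM of 20 genes in each library at 21 WAF (green) and 26 WAF (purple), with circles for library A, squares for B, diamonds for C, and bars for the mean of 3. The upper 10 genes rose and the lower 10 fell, and in none of them did the libraries of both ages overlap.

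Genes of the pigment pathway rose together. Of 37 tested genes for flavonoid and anthocyanin synthesis (62 in the table), 28 rose and 5 fell, with a median log2 difference of 0.56 against -0.06 over all tested genes. This median depends on the filter and was 0.07 without it, where genes near 0 FPKM enter. The largest rise of any described gene at 10 FPKM or more was that of a leucoanthocyanidin dioxygenase gene (LOC111368826), whose enzyme makes the coloured anthocyanidins. Its libraries held 0.77, 0.64 and 0.71 FPKM at 21 WAF and 43.8, 39.2 and 41.3 FPKM at 26 WAF (log2 difference 4.64, SE 0.047, adjusted p = 4.6e-15). Near absence thus gave way to a clear level in every library of 26 WAF, and the mean reached 512 FPKM at 30 WAF. Dihydroflavonol 4-reductase, the enzyme before it, was encoded by a gene (LOC111409594) that rose from 0.17, 0.070 and 0.10 to 7.94, 7.80 and 8.49 FPKM (log2 difference 3.03, SE 0.057, adjusted p = 4.5e-13). Chalcone synthase starts the pathway, and its J-type gene (LOC111379443) rose from 0.51, 0.56 and 0.51 to 11.96, 11.8 and 13.2 FPKM (log2 difference 3.13, SE 0.058, adjusted p = 3.6e-13). A second chalcone synthase gene (LOC111374392) and a second dihydroflavonol 4-reductase gene (LOC111376252) were singled out after their values had been seen and rose from 0.46, 0.37 and 0.34 to 9.41, 7.30 and 7.79 FPKM and from 0.45, 0.11 and 0.11 to 5.98, 5.85 and 5.43 FPKM respectively. All of these genes were below 1 FPKM in every library of 21 WAF and above 5 FPKM in every library of 26 WAF.

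Late steps of pigment synthesis that were already active changed less. An anthocyanidin 3-O-glucoside 2''-O-glucosyltransferase gene (LOC111386713), which adds a further sugar to anthocyanins, rose from 38.7, 41.1 and 41.5 to 84.9, 91.96 and 87.5 FPKM (log2 difference 1.10, SE 0.036, adjusted p = 8.3e-11). The most abundant gene of the list, an anthocyanidin 3-O-glucosyltransferase 5 gene (LOC111383563), fell from 196, 203 and 195 to 174, 173 and 179 FPKM (log2 difference -0.18, SE 0.025, adjusted p = 6.5e-05). So members of the glucosyltransferase group went in both directions, without overlap between ages in either gene. A glutathione S-transferase F11 gene (LOC111397175) belongs to the phi class, whose Arabidopsis member TT19 carries anthocyanins to the vacuole. It rose 12.5-fold in mean FPKM, from 8.79, 9.53 and 9.69 to 118, 111 and 120.3 FPKM (log2 difference 3.51, SE 0.047, adjusted p = 2.7e-14). Its mean at 30 WAF was higher again, at 1134 FPKM. Among the HD-ZIP IV and cuticle genes given above, which mark the skin, falls outnumbered rises. The part of skin RNA in the rises of pigment genes was not tested.

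Most tested genes of the general phenylpropanoid pathway, which feeds pigments, lignans and lignin, also rose. Of 8 tested core genes, 6 rose and 1 fell, and 3 rose among those with a mean of at least 5 FPKM. The most abundant, trans-cinnamate 4-monooxygenase (LOC111393218), rose from 169, 163 and 161 to 246, 243 and 242 FPKM (log2 difference 0.56, SE 0.028, adjusted p = 4.2e-09). A phenylalanine ammonia-lyase gene (LOC111403111), for the enzyme that opens the pathway, fell from 4.89, 5.36 and 5.42 to 3.26, 3.42 and 3.38 FPKM (log2 difference -0.51, SE 0.056, adjusted p = 5.9e-06).

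A row of neighbouring lignan dehydrogenase genes rose. Secoisolariciresinol dehydrogenase converts secoisolariciresinol to matairesinol, a lignan, which is a dimer of phenylpropanoid units. Of 21 tested lignan and dirigent genes, 15 rose and 6 fell, with a median of 0.91, or 0.02 without the filter on low values. In the RefSeq gene table of assembly O_europaea_v1, 10 secoisolariciresinol dehydrogenase genes lie in a row with 2 other genes between them, and 10 of these 10 rose. This row was looked for after the values had been seen. Its summed level was 1229, 1232 and 1223 FPKM at 21 WAF and 4525, 4349 and 4423 FPKM at 26 WAF. The sizes of the differences within the row ran from 0.77 to 4.11. Most abundant was LOC111412275, which rose from 362, 353 and 357 to 1372, 1323 and 1351 FPKM (log2 difference 1.91, SE 0.026, adjusted p = 2.7e-14). Next in abundance, LOC111412277 rose from 374, 388 and 371 to 1071, 1047 and 1043 FPKM (log2 difference 1.48, SE 0.026, adjusted p = 3e-13). Larger ratios were found in genes that were low at 21 WAF. The gene LOC111412272 rose from 47.7, 46.9 and 46.5 to 557, 526 and 553 FPKM (log2 difference 3.51, SE 0.029, adjusted p = 5.7e-16). Its neighbour LOC111412273 rose from 23.9, 21.02 and 21.4 to 344, 325 and 355 FPKM (log2 difference 3.89, SE 0.044, adjusted p = 1.2e-14). The steepest member, LOC111412681, was near 1 FPKM at 21 WAF and rose from 0.70, 1.11 and 0.71 to 37.1, 23.2 and 33.04 FPKM (log2 difference 4.11, SE 0.192, adjusted p = 2.4e-09). Since such neighbours can share reads, the level of each single gene is less certain than their sum. Outside the row, 2 secoisolariciresinol dehydrogenase genes were tested, of which 1 rose and 1 fell.

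Dirigent proteins, which steer the coupling of phenylpropanoid units, were split. The dirigent protein 22 gene LOC111383984 rose from 1.15, 1.65 and 1.26 to 22.7, 24.9 and 27.5 FPKM (log2 difference 3.47, SE 0.080, adjusted p = 2.7e-12). Another dirigent protein 22 gene, LOC111374881, fell from 122, 111 and 111 to 84.4, 73.1 and 83.7 FPKM (log2 difference -0.51, SE 0.055, adjusted p = 5.6e-06). The ages did not overlap in either case.

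Genes that degrade pectin rose more often than they fell, led by polygalacturonases. Pectin is the gel-like polymer between plant cells, and polygalacturonases and pectate lyases cut it. Of 53 tested genes for pectin degradation (195 in the table), 24 rose and 13 fell (8 under median-of-ratios scaling), and the list summed to 811 to 840.4 FPKM at 21 WAF and 1383 to 1395 FPKM at 26 WAF. The polygalacturonase gene LOC111377603 rose from 7.51, 9.25 and 8.30 to 105, 104 and 106 FPKM (log2 difference 3.51, SE 0.063, adjusted p = 3.2e-13). A second one, LOC111396324, rose from 7.50, 6.04 and 5.93 to 76.00, 76.6 and 75.6 FPKM (log2 difference 3.37, SE 0.068, adjusted p = 8.1e-13), and another, LOC111395349, from 3.77, 3.78 and 4.54 to 49.5, 52.5 and 53.8 FPKM (log2 difference 3.40, SE 0.091, adjusted p = 1.2e-11). All of these were below 10 FPKM at 21 WAF in every library and above 49 FPKM at 26 WAF. Pectate lyase 8 (LOC111379453) rose from 39.1, 36.9 and 35.3 to 166, 161 and 163 FPKM (log2 difference 2.11, SE 0.043, adjusted p = 9.5e-13). Pectinesterases, which strip methyl groups from pectin, were abundant at both ages and divided: LOC111367315 rose from 209, 201 and 200.4 to 247, 247 and 251 FPKM (log2 difference 0.29, SE 0.028, adjusted p = 1.9e-06), while LOC111366947 fell from 114 ± 1.58 to 85.4 ± 2.89 FPKM (log2 difference -0.41, SE 0.034, adjusted p = 5.1e-07).

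Expansins loosen the contact between cellulose and other wall polymers without cutting them. Of 15 tested expansin genes, 9 rose and 1 fell, with a median of 0.70, or 0.02 without the filter on low values. The expansin A15 gene LOC111381719 was the most abundant and rose from 443, 461 and 439 to 1611, 1603 and 1638 FPKM (log2 difference 1.85, SE 0.026, adjusted p = 3.7e-14). An expansin A8 gene (LOC111384671) rose from 77.00, 76.01 and 75.7 to 271, 268 and 263 FPKM (log2 difference 1.80, SE 0.035, adjusted p = 6.3e-13). Neither gene showed any overlap between ages, and both were still higher at 30 WAF, at 3142 and 1065 FPKM. The fall was that of expansin A13 (LOC111397180), from 8.78, 9.53 and 8.83 to 7.71, 8.04 and 8.10 FPKM (log2 difference -0.17, SE 0.050, adjusted p = 0.013), and was not called under median-of-ratios scaling or without library B of 21 WAF or A of 26 WAF.

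Xyloglucan enzymes, which cut and rejoin the hemicellulose that ties cellulose fibres together, had no common direction. Of 39 tested genes 13 (33.3%) rose and 12 (30.8%) fell, against 23.2% and 32.9% of all tested genes. Among them an endotransglucosylase/hydrolase 23 gene (LOC111387295) had the largest fall, from 10.5, 10.7 and 9.34 to 2.09, 2.23 and 2.39 FPKM (log2 difference -1.79, SE 0.064, adjusted p = 1.9e-10). A different gene with the same description (LOC111385517) rose from 1.67, 2.07 and 1.66 to 5.42, 5.76 and 4.63 FPKM (log2 difference 1.16, SE 0.136, adjusted p = 1.2e-05). The endotransglucosylase/hydrolase 9 gene (LOC111370402) fell from 89.8, 87.3 and 87.5 to 43.3, 39.9 and 42.9 FPKM (log2 difference -1.05, SE 0.042, adjusted p = 5e-10). Beta-galactosidases and related glycosidases, which trim side chains, rose in 10 of 19 tested genes and fell in 5. The most abundant of them (LOC111387481) rose from 319, 327 and 317 to 496, 498 and 493 FPKM (log2 difference 0.63, SE 0.027, adjusted p = 1e-09).

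**Figure D3:**
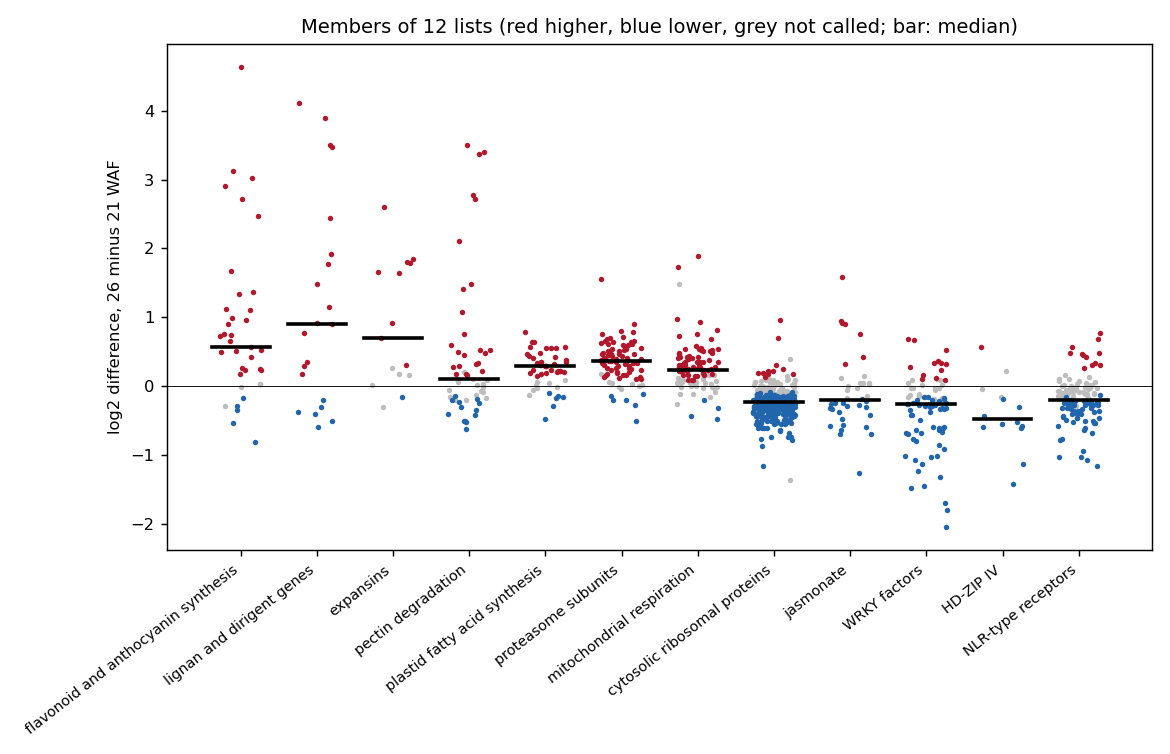
Each point is a tested gene of 12 lists, placed by its log2 difference (26 minus 21 WAF), with red for higher, blue for lower, grey for not called and a bar at the list's median. The flavonoid, lignan, pectin degradation and expansin lists reach far upwards. The proteasome list is shifted upwards by a small amount in most members, and most ribosomal protein, WRKY and HD-ZIP IV genes lie below 0.

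Of 22 tested genes for ethylene synthesis and signalling, 5 rose and 12 fell, and 8 rose without the filter on low values. The enzyme 1-aminocyclopropane-1-carboxylate (ACC) oxidase makes ethylene, and of 5 tested genes described by this name 4 rose and 1 was not called. The largest of these rises, in LOC111370659, was from 1.82, 2.31 and 2.71 to 35.8, 34.4 and 36.98 FPKM (log2 difference 3.49, SE 0.084, adjusted p = 3.9e-12). Smaller rises were found for LOC111370655, from 17.3, 17.1 and 17.6 to 43.5, 38.1 and 46.1 FPKM (log2 difference 1.24, SE 0.064, adjusted p = 5.2e-09), and for LOC111370656, from 5.48, 5.32 and 4.27 to 13.4, 13.1 and 14.1 FPKM (log2 difference 1.28, SE 0.075, adjusted p = 1.9e-08). In each of them all 26 WAF libraries were above all 21 WAF libraries. An ACC synthase gene (LOC111380501), for the step that makes the precursor, fell from 8.63, 9.27 and 8.83 to 5.48, 5.55 and 5.34 FPKM (log2 difference -0.62, SE 0.055, adjusted p = 1e-06). ETHYLENE INSENSITIVE 3 factors switch on ethylene responses, and a gene for one of them (LOC111391955) fell from 134, 131 and 127 to 104, 92.5 and 96.4 FPKM (log2 difference -0.42, SE 0.043, adjusted p = 4e-06). A gene for the EIN3-binding F-box protein 1 (LOC111387511), which removes these factors, fell as well, from 13.7, 14.1 and 14.6 to 9.05, 9.17 and 8.03 FPKM (log2 difference -0.63, SE 0.053, adjusted p = 5.6e-07). The gene for ethylene receptor 2 (LOC111370876), which binds the hormone, rose by a small amount, from 73.01, 76.1 and 76.98 to 82.5, 83.96 and 80.4 FPKM (log2 difference 0.13, SE 0.031, adjusted p = 0.0038).

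Ethylene response factors, the large family of transcription factors named after this hormone, were lower more often than higher, with 60 falls (47.6%) and 32 rises (25.4%) in 126 tested genes. The rises numbered 19 with a mean of at least 5 FPKM. RAP2-3 (LOC111371498), a member of the group whose stability depends on oxygen in Arabidopsis, was the most abundant and fell from 1719, 1673 and 1666 to 908, 840.0 and 955 FPKM (log2 difference -0.91, SE 0.039, adjusted p = 9.6e-10). RAP2-12 (LOC111367665), of the same group, fell by less, from 673, 673 and 667 to 563, 563 and 561 FPKM (log2 difference -0.25, SE 0.022, adjusted p = 7.8e-07). The strongest rise of the family was in an ERF003 gene (LOC111407442), with 29.6, 28.4 and 25.1 FPKM at 21 WAF and 149, 135 and 142 FPKM at 26 WAF (log2 difference 2.32, SE 0.061, adjusted p = 1.1e-11). Its mean was 76.7 FPKM at 17 WAF and 28.8 FPKM at 30 WAF, so the level of 26 WAF was above both outer ages. An ABR1 gene (LOC111409375) rose from 3.43, 3.42 and 3.42 to 15.4, 13.7 and 14.4 FPKM (log2 difference 1.81, SE 0.073, adjusted p = 6.1e-10).

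Among 32 tested genes of abscisic acid, a hormone of ripening and drought, 9 (28.1%) rose and 14 (43.8%) fell, against 23.2% and 32.9% of all tested genes, or 11 and 11 with median-of-ratios scaling. The abundant abscisic stress-ripening protein 2 genes moved apart: LOC111408761 rose from 1550.2, 1473 and 1448 to 1926, 1911 and 2069 FPKM (log2 difference 0.40, SE 0.038, adjusted p = 1.6e-06), and LOC111408760 fell from 1259.5, 1326 and 1283 to 1050.2, 1042 and 1159 FPKM (log2 difference -0.25, SE 0.050, adjusted p = 0.00094). Abscisic acid 8'-hydroxylases inactivate the hormone, and they parted too. The 8'-hydroxylase 1 gene (LOC111404289) fell from 6.38, 6.45 and 6.43 to 1.74, 1.20 and 1.60 FPKM (log2 difference -1.57, SE 0.079, adjusted p = 4.6e-09), whereas the 8'-hydroxylase 4 gene (LOC111410611) rose from 49.6, 48.8 and 46.6 to 69.8, 72.4 and 74.5 FPKM (log2 difference 0.57, SE 0.036, adjusted p = 3.5e-08). A gibberellin 2-beta-dioxygenase 8 gene (LOC111368538), for an enzyme that inactivates gibberellins, fell from 10.8, 11.8 and 9.93 to 2.13, 1.27 and 2.03 FPKM (log2 difference -2.09, SE 0.126, adjusted p = 2.4e-08).

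Secoiridoid genes changed by member. Iridoids are made from geraniol through 8-hydroxygeraniol, and oleuropein is the iridoid derivative that makes olives bitter. Of 32 tested genes of this list, 15 rose and 9 fell, with a median of 0.11, or 0.01 without the filter. The 8-hydroxygeraniol dehydrogenase gene LOC111376665 rose from 2.07, 2.12 and 2.04 to 32.1, 31.9 and 33.2 FPKM (log2 difference 3.44, SE 0.055, adjusted p = 1.2e-13). Its mean was 0.35 FPKM at 17 WAF and 156 FPKM at 30 WAF. Of 11 tested genes with this description 6 rose and 2 fell. Among the named ones, LOC111387381 rose from 81.9, 84.5 and 81.8 to 154, 155 and 156 FPKM (log2 difference 0.90, SE 0.027, adjusted p = 3.7e-11), and LOC111373465 fell from 47.5, 45.3 and 49.7 to 34.9, 38.03 and 36.7 FPKM (log2 difference -0.37, SE 0.043, adjusted p = 1e-05). A 7-deoxyloganetic acid glucosyltransferase gene (LOC111376443), for the step that adds glucose, was the most abundant and rose from 153, 153 and 152 to 309, 313 and 312 FPKM (log2 difference 1.02, SE 0.028, adjusted p = 1.2e-11). In all of these genes the ranges of both ages were separate.

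Beta-glucosidases remove glucose from many compounds, and an olive member of the family releases the aglycone of oleuropein. The abundant beta-glucosidase gene of the flesh (LOC111404214) had 9672, 10181 and 10173 FPKM at 21 WAF and 10794, 11241 and 10329 FPKM at 26 WAF (log2 difference 0.11, SE 0.037, adjusted p = 0.025). The ages did not overlap but lay close together, and the call was lost in a fit of the 6 libraries alone (adjusted p = 0.11), without the filter, and without library A of 21 WAF or libraries A or B of 26 WAF. Of 33 tested genes for beta-glucosidases and phenol oxidation, 17 rose and 12 fell. A BoGH3B-like beta-glucosidase gene (LOC111382271) rose from 23.6, 23.7 and 23.8 to 67.9, 65.7 and 66.3 FPKM (log2 difference 1.45, SE 0.031, adjusted p = 1.3e-12).

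Among 54 tested genes of sugar metabolism and transport 21 (38.9%) rose and 11 (20.4%) fell. The 3 largest rises were in a soluble invertase gene and in genes of 2 sugar transporters. Acid invertases cut sucrose into glucose and fructose. The soluble isoenzyme I gene (LOC111383352) rose from 28.4, 30.4 and 29.7 to 221, 224 and 219 FPKM (log2 difference 2.87, SE 0.050, adjusted p = 2.4e-13), and an acid beta-fructofuranosidase gene (LOC111385780) from 68.9, 66.99 and 68.7 to 226, 234 and 228 FPKM (log2 difference 1.74, SE 0.027, adjusted p = 9.3e-14). Sucrose synthase (LOC111366090), which splits sucrose into UDP-glucose and fructose, rose from 188, 193 and 192 to 391, 395 and 393 FPKM (log2 difference 1.04, SE 0.022, adjusted p = 1.5e-12). All of these values at 26 WAF were well above those of 21 WAF. Olive also moves the sugar alcohol mannitol, and the most abundant transporter gene of the list, putative polyol transporter 1 (LOC111399534), rose from 661, 667 and 649.9 to 1158, 1129 and 1118 FPKM (log2 difference 0.78, SE 0.025, adjusted p = 6.2e-11). Sugar transport protein 13 (LOC111369468), of the family that takes up hexoses, rose from 0.95, 1.01 and 0.92 to 8.04, 8.10 and 8.05 FPKM (log2 difference 2.21, SE 0.047, adjusted p = 1.2e-12). SWEET sugar transporters parted, with a SWEET1 gene (LOC111408733) rising from 4.02, 3.80 and 4.27 to 18.1, 18.4 and 18.3 FPKM (log2 difference 1.94, SE 0.077, adjusted p = 5.4e-10) and a SWEET2a gene (LOC111372732) falling from 9.80, 9.53 and 11.4 to 4.80, 5.16 and 3.49 FPKM (log2 difference -1.05, SE 0.129, adjusted p = 1.8e-05).

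Among starch genes single members changed strongly. Beta-amylase releases maltose from starch, and a beta-amylase 3 gene (LOC111393930) rose 9.60-fold in mean FPKM, from 10.1, 9.59 and 10.8 to 97.95, 98.6 and 95.9 FPKM (log2 difference 3.14, SE 0.041, adjusted p = 2.7e-14). A second beta-amylase 3 gene (LOC111390256) fell from 27.96, 27.04 and 27.9 to 14.1, 13.96 and 14.5 FPKM (log2 difference -0.92, SE 0.048, adjusted p = 6.1e-09). The 2 copies thus exchanged their order, since the first was the lower at 21 WAF and the higher at 26 WAF in every library. Granule-bound starch synthase 1 (LOC111377230), which makes amylose, fell from 57.98, 60.1 and 58.4 to 32.03, 32.5 and 33.5 FPKM (log2 difference -0.83, SE 0.042, adjusted p = 4.9e-09). The list held 16 rises (34.8%) and 11 falls (23.9%) among 46 tested genes, with 7 falls without library C of 26 WAF or under median-of-ratios scaling.

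Most tested genes of fatty acid synthesis in plastids rose. Of 51 tested genes, 37 rose and 6 fell. All genes of this list in the table summed to 8323 to 8473 FPKM at 21 WAF and 10640.0 to 10880.0 FPKM at 26 WAF. Without library B of 21 WAF 3 fell, and under median-of-ratios scaling 2. The steps were small, with a median of 0.28 and a largest rise of 0.79. Acyl carrier protein 1 (LOC111375813), on which chains grow, rose from 1812, 1833 and 1781 to 2510.1, 2424 and 2589 FPKM (log2 difference 0.47, SE 0.037, adjusted p = 2.9e-07). The largest rise was that of a 3-oxoacyl-ACP synthase II gene (LOC111411906), for the enzyme that lengthens palmitate to stearate, with 43.1 ± 0.835 to 75.1 ± 1.17 FPKM (log2 difference 0.79, SE 0.028, adjusted p = 2.1e-10). An oleoyl-ACP thioesterase 1 gene (LOC111385815), for the enzyme that frees oleate for export, rose from 60.4 ± 1.61 to 95.2 ± 2.14 FPKM (log2 difference 0.65, SE 0.028, adjusted p = 1.2e-09). In contrast, a palmitoyl-ACP thioesterase gene (LOC111411282) fell from 28.2 ± 1.09 to 24.8 ± 0.953 FPKM (log2 difference -0.18, SE 0.058, adjusted p = 0.019), a call lost with median-of-ratios scaling and without library A of either age.

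Desaturases set the degree of unsaturation of the oil. The stearoyl-ACP desaturase gene LOC111375456, for the enzyme that makes the oleate typical of olive oil, rose from 1189.5, 1189.8 and 1177 to 1754, 1732 and 1759.8 FPKM (log2 difference 0.56, SE 0.024, adjusted p = 1.1e-09). FAD2 desaturases turn oleate into linoleate, and their genes parted. The more abundant one, LOC111399693, rose from 188, 194 and 188 to 311, 309 and 315 FPKM (log2 difference 0.71, SE 0.032, adjusted p = 1.8e-09), and LOC111390764 fell from 15.5, 16.4 and 17.2 to 8.12, 7.49 and 7.59 FPKM (log2 difference -0.99, SE 0.053, adjusted p = 7.6e-09). Of 13 tested desaturase genes 4 rose and 6 fell, although the list's sum was higher at 26 WAF, at 2727 to 2749 FPKM against 1983 to 2005 FPKM.

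Assembly of triacylglycerol had 19 rises and 8 falls among 38 tested genes. The falls numbered 4 or 5 without library B or C of 21 WAF or A of 26 WAF, and 4 under median-of-ratios scaling. The diacylglycerol acyltransferase 1A gene (LOC111383725), for the last step of oil synthesis, stood at 93.4 ± 2.29 FPKM at 21 WAF and 93.99 ± 1.98 FPKM at 26 WAF and was not called (log2 difference 0.01, SE 0.041, adjusted p = 0.86). Its level thus stayed within the spread of the libraries, which overlapped between ages. The 20.3 kDa oleosin gene (LOC111402449), for a protein that coats oil bodies, fell from 178, 172 and 160.1 to 152, 134 and 155 FPKM (log2 difference -0.21, SE 0.059, adjusted p = 0.0084), a call lost with median-of-ratios scaling. Lipases and peroxisomal beta-oxidation, which break oil down, rose in 19 of 32 tested genes and fell in 6. The most abundant of these, 3-ketoacyl-CoA thiolase 2 (LOC111392597), rose from 102, 103 and 102 to 152, 148 and 148 FPKM (log2 difference 0.54, SE 0.025, adjusted p = 2e-09).

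Isoprenoid genes of the mevalonate pathway, which leads to squalene and sterols, held opposite changes at its entry. Of 55 tested genes 25 rose and 13 fell. The hydroxymethylglutaryl-CoA synthase gene LOC111407520 fell from 78.2, 77.4 and 80.5 to 36.9, 40.2 and 36.8 FPKM (log2 difference -1.03, SE 0.038, adjusted p = 2.3e-10), while LOC111378381, with the same description, rose from 8.33, 6.11 and 6.22 to 12.9, 12.4 and 12.9 FPKM (log2 difference 0.81, SE 0.095, adjusted p = 1.1e-05). A gene for 3-hydroxy-3-methylglutaryl-CoA reductase (LOC111410512), a control point of the pathway, fell from 52.4, 48.1 and 48.8 to 27.7, 28.1 and 29.2 FPKM (log2 difference -0.79, SE 0.040, adjusted p = 4.9e-09). Further down, squalene epoxidase 1 (LOC111390117) rose from 5.78, 5.71 and 6.03 to 13.6, 14.3 and 13.5 FPKM (log2 difference 1.12, SE 0.042, adjusted p = 2.8e-10) and farnesyl pyrophosphate synthase 1 (LOC111396906) from 198, 198 and 199.8 to 271, 280.4 and 262 FPKM (log2 difference 0.45, SE 0.026, adjusted p = 2e-08). Each of these genes had separate ranges at both ages.

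Most tested genes of carbon fixation rose, while genes of the light reactions had no common direction. In the light reactions 22 of 77 tested genes (28.6%) rose and 21 (27.3%) fell, against 23.2% and 32.9% of all tested genes, and with median-of-ratios scaling 33 rose and 17 fell. Chlorophyll a-b binding proteins collect light and come in near-identical copies, so single genes are uncertain. Of them, LOC111402246 rose from 1225, 1229 and 1153 to 1519, 1370.0 and 1604 FPKM (log2 difference 0.31, SE 0.051, adjusted p = 0.0002), and LOC111372725 fell from 28.5, 26.6 and 24.3 to 13.8, 12.3 and 12.9 FPKM (log2 difference -0.97, SE 0.057, adjusted p = 1.9e-08). Genes for the photosystem II 22 kDa protein, which protects against excess light, rose, with LOC111381850 going from 37.4, 36.1 and 37.5 to 64.2, 58.5 and 60.2 FPKM (log2 difference 0.70, SE 0.049, adjusted p = 9.7e-08). In the Calvin cycle, which fixes carbon, 16 of 27 tested genes rose and 2 fell. The abundant Rubisco small chain gene (LOC111391236) rose from 3434, 3150.4 and 3111 to 4707, 4598 and 4969 FPKM (log2 difference 0.56, SE 0.047, adjusted p = 6.1e-07), and Rubisco activase (LOC111405975) from 233, 227 and 222 to 317, 314 and 342 FPKM (log2 difference 0.51, SE 0.036, adjusted p = 1e-07).

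Of 33 tested genes for chlorophyll synthesis 5 (15.2%) rose and 11 (33.3%) fell. With median-of-ratios scaling 9 rose and 8 fell, where 7643 of all 26131 tested genes rose and 6673 fell. The rises numbered 3 without library A of 21 WAF or B or C of 26 WAF. Magnesium chelatase inserts magnesium, and its subunit genes moved apart: ChlD (LOC111400850) rose from 38.04, 40.4 and 40.2 to 76.5, 83.5 and 75.99 FPKM (log2 difference 0.97, SE 0.040, adjusted p = 7.4e-10), whereas ChlH (LOC111377989) fell from 77.2, 79.1 and 76.3 to 62.4, 61.96 and 62.6 FPKM (log2 difference -0.31, SE 0.028, adjusted p = 9.7e-07). Of 16 tested genes for chlorophyll breakdown, 7 (43.8%) rose and 5 (31.2%) fell. STAY-GREEN (LOC111368827), which removes magnesium from chlorophyll, rose from 92.3, 92.7 and 96.4 to 125, 132 and 135 FPKM (log2 difference 0.47, SE 0.034, adjusted p = 1.4e-07). Chlorophyllase 2 (LOC111377213), which cleaves the phytol tail, fell from 23.6, 23.4 and 25.6 to 7.63, 7.99 and 7.33 FPKM (log2 difference -1.54, SE 0.044, adjusted p = 2e-11).

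**Figure D4:**
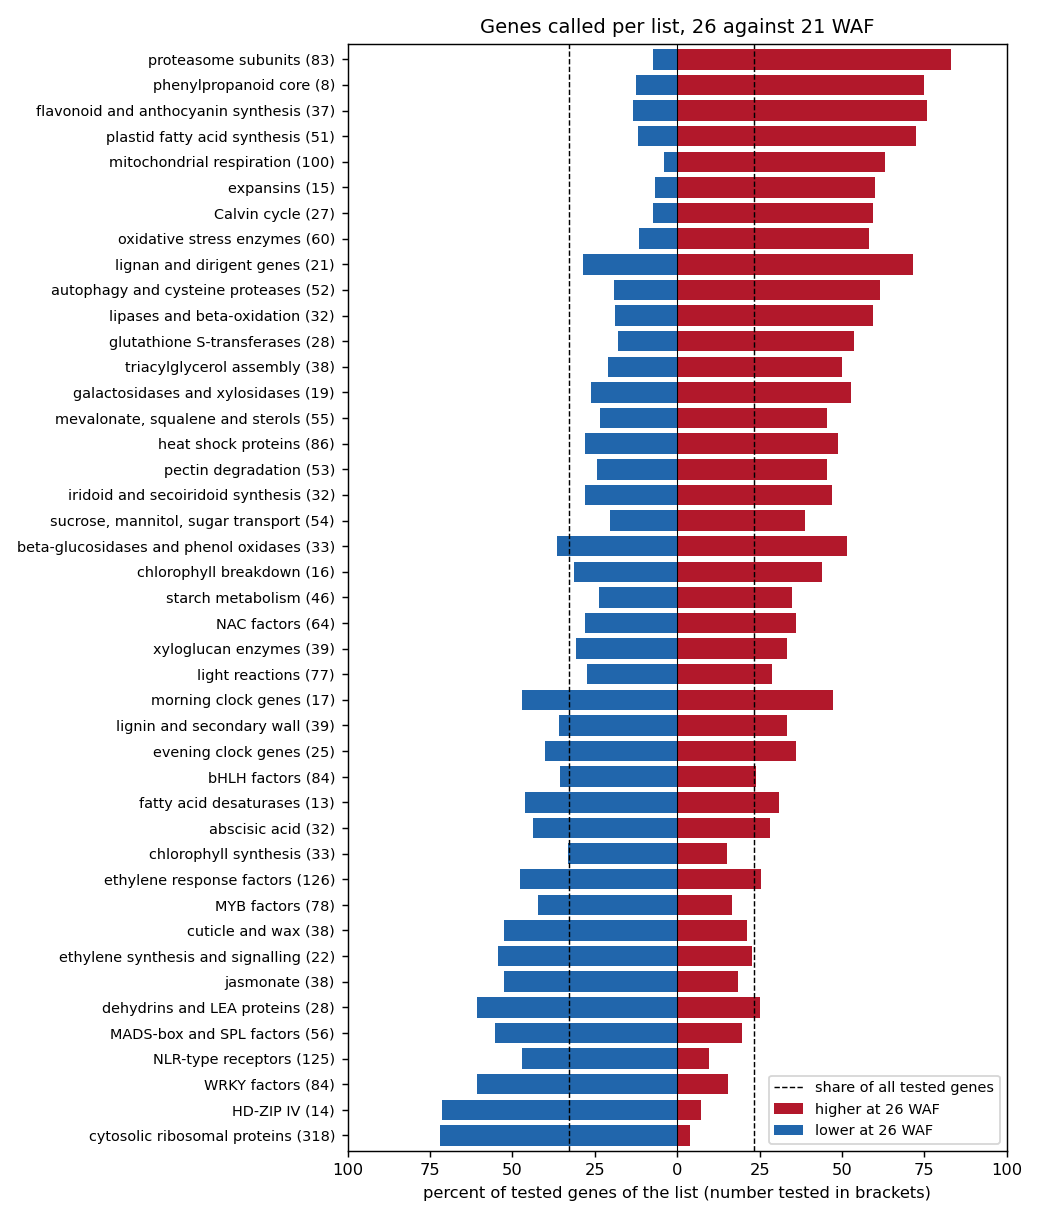
Bars give the percent of tested genes of each list that were higher (red, right) or lower (blue, left) at 26 WAF, with the number tested in brackets and dashed lines at the shares of all tested genes (23.2% and 32.9%). Lists with fewer than 8 tested genes are left out, and the order runs from the most one-sided rise, the proteasome, to the most one-sided fall, the cytosolic ribosomal proteins.

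Most proteasome genes rose and most ribosomal protein genes fell, by small amounts. The proteasome degrades tagged proteins, and 69 of its 83 tested genes rose and 6 fell, with a median of 0.36. The list summed to 3793 to 3816 FPKM at 21 WAF and 4980.0 to 5112 FPKM at 26 WAF. The largest rise was in the gene for non-ATPase regulatory subunit 14 (LOC111408810), which removes ubiquitin chains, from 19.3, 20.4 and 18.4 to 56.3, 59.1 and 61.03 FPKM (log2 difference 1.56, SE 0.047, adjusted p = 3.7e-11). The most abundant, regulatory subunit 4 homolog A (LOC111403638), rose from 179, 182 and 178 to 235, 236 and 232 FPKM (log2 difference 0.38, SE 0.024, adjusted p = 3.6e-08). Cytosolic ribosomal protein genes went the other way, with 229 of 318 tested genes lower, 12 higher and a median of -0.24. With median-of-ratios scaling 172 were lower and 19 higher, and 7 were higher without library A or C of 26 WAF. The 60S protein L19-3 gene (LOC111403559) was the most abundant and fell from 614, 618 and 607 to 467.9, 437 and 482 FPKM (log2 difference -0.41, SE 0.041, adjusted p = 3.3e-06). A 60S L10 gene (LOC111405928) rose from 23.04, 22.9 and 21.5 to 46.6, 39.3 and 48.2 FPKM (log2 difference 0.96, SE 0.065, adjusted p = 7.4e-08). Ribosomal protein genes have near-identical copies, so the values of single genes are uncertain.

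Autophagy genes and cysteine proteases rose in 32 of 52 tested genes and fell in 10. The gene for the cysteine protease RD19B (LOC111394575) rose from 0.59, 0.60 and 0.72 to 12.4, 12.1 and 13.3 FPKM (log2 difference 3.06, SE 0.083, adjusted p = 1.4e-11). Autophagy-related protein 11 (LOC111380383), a scaffold of the process in yeast and plants, rose from 1.04, 1.37 and 1.27 to 8.47, 8.26 and 8.46 FPKM (log2 difference 2.08, SE 0.067, adjusted p = 6.9e-11). An abundant vacuolar-processing enzyme gene (LOC111376116), for a protease that matures vacuolar proteins, rose from 802, 806 and 788 to 1211, 1163 and 1144 FPKM (log2 difference 0.55, SE 0.031, adjusted p = 1.4e-08). In the first gene the level passed from below 1 FPKM to above 12 FPKM in every library. Senescence-associated carboxylesterase 101 (LOC111382217) fell from 17.6, 19.4 and 18.2 to 9.82, 10.7 and 9.95 FPKM (log2 difference -0.80, SE 0.049, adjusted p = 2.9e-08).

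Mitochondrial respiration rose in 63 of 100 tested genes and fell in 4, with a median of 0.24. Ubiquinol oxidases form the alternative branch, which passes electrons to oxygen without pumping protons. Their genes parted: oxidase 2 (LOC111378723) rose from 3.66, 3.24 and 2.94 to 15.5, 11.9 and 12.5 FPKM (log2 difference 1.73, SE 0.087, adjusted p = 4.3e-09) and oxidase 1 (LOC111377163) from 1.48, 2.60 and 2.24 to 9.59, 10.9 and 10.5 FPKM (log2 difference 1.88, SE 0.119, adjusted p = 4e-08), while the more abundant oxidase 3 (LOC111398599) fell from 69.98, 66.6 and 68.2 to 49.9, 48.7 and 52.6 FPKM (log2 difference -0.43, SE 0.040, adjusted p = 1.3e-06). An ATP synthase subunit O gene (LOC111386536) rose from 45.3, 46.3 and 42.5 to 89.3, 85.3 and 91.6 FPKM (log2 difference 0.97, SE 0.047, adjusted p = 3e-09).

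Enzymes against reactive oxygen were mostly higher, with 35 rises and 7 falls among 60 tested genes. Without library A of 21 WAF or B of 26 WAF 4 fell, and under median-of-ratios scaling 3. Phospholipid hydroperoxide glutathione peroxidases repair oxidised lipids, and the gene LOC111383096 rose from 54.6, 57.03 and 56.4 to 136, 133 and 127 FPKM (log2 difference 1.22, SE 0.037, adjusted p = 4e-11). The gene for catalase 3 (LOC111371766), an enzyme that splits hydrogen peroxide, rose from 1546, 1507 and 1494 to 1982, 1897 and 1899 FPKM (log2 difference 0.35, SE 0.026, adjusted p = 2.4e-07). A Cu-Zn superoxide dismutase 2 gene (LOC111371474) fell from 1119.6, 1086 and 1052 to 949, 863 and 944 FPKM (log2 difference -0.24, SE 0.040, adjusted p = 0.00021). Of 28 tested glutathione S-transferase genes 15 rose and 5 fell, and one of the falls was in another F11 gene (LOC111380799), from 76.6, 81.6 and 81.9 to 57.8, 56.5 and 59.7 FPKM (log2 difference -0.46, SE 0.045, adjusted p = 2.5e-06).

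Heat shock genes, for chaperones that keep proteins folded, rose in 42 of 86 tested genes and fell in 24. Their median was 0.12, against -0.06 over all tested genes. With a mean of at least 5 FPKM, which tests fewer genes, 26 rose. The median was then 0.001, against -0.03 over all genes that passed this filter. The mitochondrial 22 kDa heat shock protein gene (LOC111391235) rose from 11.7, 12.3 and 13.03 to 109, 109 and 112 FPKM (log2 difference 3.06, SE 0.041, adjusted p = 2.7e-14). A heat shock protein 83 (HSP83) gene (LOC111393347) rose from 5.83, 6.05 and 5.64 to 27.97, 30.1 and 25.9 FPKM (log2 difference 2.08, SE 0.061, adjusted p = 3e-11), and a heat shock cognate 70 kDa gene (LOC111405482) from 4.94, 5.27 and 5.08 to 28.9, 28.2 and 28.7 FPKM (log2 difference 2.28, SE 0.064, adjusted p = 1.9e-11). The outer ages differed between these genes, since the 22 kDa gene was at 113 FPKM at 30 WAF and the other genes were at 7.60 and 8.77 FPKM. Heat stress transcription factor A-4b (LOC111395511) fell from 19.1, 19.6 and 20.4 to 7.68, 7.67 and 7.66 FPKM (log2 difference -1.25, SE 0.078, adjusted p = 3.2e-08). Dehydrins and late embryogenesis abundant proteins, which protect cells during drying, fell in 17 of 28 tested genes and rose in 7. The DHN1 gene LOC111379830 rose from 309, 293 and 286 to 500.2, 482 and 521 FPKM (log2 difference 0.76, SE 0.043, adjusted p = 1.3e-08), and the DHN1 gene LOC111401947 fell from 55.8, 53.2 and 52.2 to 29.2, 25.3 and 29.4 FPKM (log2 difference -0.92, SE 0.055, adjusted p = 2.2e-08).

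Most tested WRKY genes fell. WRKY factors regulate defence and senescence in Arabidopsis, and 51 of 84 tested genes fell and 13 rose, with a median of -0.25, or -0.12 without the filter. With median-of-ratios scaling 42 fell and 15 rose. The WRKY53 gene LOC111402874 fell from 140.3, 141 and 138 to 38.1, 40.5 and 39.9 FPKM (log2 difference -1.80, SE 0.040, adjusted p = 2e-12). WRKY70 (LOC111392938), the most abundant, fell from 354, 355 and 350.4 to 181, 163 and 172 FPKM (log2 difference -1.03, SE 0.041, adjusted p = 4.5e-10), and WRKY33 (LOC111405948) from 166, 157 and 160.5 to 78.8, 79.6 and 78.99 FPKM (log2 difference -1.02, SE 0.029, adjusted p = 2.3e-11). In each of these genes every library of 26 WAF lay below every library of 21 WAF, and the means at 30 WAF were lower again. WRKY6 (LOC111389364) rose, from 149, 136 and 129.9 to 169, 159 and 172 FPKM (log2 difference 0.27, SE 0.051, adjusted p = 0.00064).

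Jasmonate is a hormone of wounding and defence, and its repressors of the TIFY family were more often lower than higher, with 9 falls and 3 rises among 17 tested TIFY genes. Of the whole list of 38 tested genes 20 fell and 7 rose. The TIFY 10A gene LOC111404294 fell from 321, 312 and 303 to 197, 178 and 202 FPKM (log2 difference -0.70, SE 0.052, adjusted p = 1.9e-07) and the TIFY 10b gene LOC111372553 from 40.3, 34.1 and 35.3 to 15.2, 14.8 and 14.00 FPKM (log2 difference -1.26, SE 0.104, adjusted p = 4.7e-07). A 12-oxophytodienoate reductase 11 gene (LOC111375625), of the family that includes a step of jasmonate synthesis, rose from 11.9, 11.8 and 12.9 to 39.9, 37.8 and 37.8 FPKM (log2 difference 1.58, SE 0.050, adjusted p = 5.6e-11). Immune receptors of the NLR type, which detect pathogen proteins inside cells, fell in 59 of 125 tested genes and rose in 12. A late blight resistance R1A-10 homolog (LOC111365461) fell from 65.8, 67.5 and 65.4 to 30.6, 33.5 and 31.7 FPKM (log2 difference -1.03, SE 0.036, adjusted p = 1.4e-10). Such receptors occur in clusters of similar copies, so single levels are uncertain.

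Calcium-binding proteins of the calmodulin-like type relay calcium signals. CML19 (LOC111378369) fell from 60.2, 59.2 and 61.01 to 14.4, 14.2 and 13.2 FPKM (log2 difference -2.03, SE 0.108, adjusted p = 7.7e-09) and CML38 (LOC111378372) from 56.2, 62.5 and 64.6 to 17.00, 15.8 and 17.8 FPKM (log2 difference -1.80, SE 0.219, adjusted p = 1.7e-05). Both continued to low means at 30 WAF, of 1.43 and 3.14 FPKM. PUB23 (LOC111384045), a ubiquitin ligase that dampens immune responses in Arabidopsis, fell from 82.5, 80.6 and 77.8 to 20.5, 20.1 and 22.2 FPKM (log2 difference -1.89, SE 0.054, adjusted p = 2.2e-11). The kinase gene Lr10 (LOC111391810), named after a rust resistance locus of wheat, fell from 18.6, 18.3 and 19.8 to 4.73, 4.66 and 5.03 FPKM (log2 difference -1.78, SE 0.064, adjusted p = 2e-10). The highest library of 26 WAF was below the lowest of 21 WAF in all of these, as the rule for the largest falls required.

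Further genes among the 15 largest falls encode RNA-binding, metal-binding and other proteins. The glycine-rich RNA-binding protein gene LOC111394597 fell from 1140.4, 1114 and 1176 to 273, 281 and 283 FPKM (log2 difference -2.03, SE 0.037, adjusted p = 3.2e-13), and the related GRP1A gene LOC111410549 from 275, 276 and 289 to 78.6, 76.2 and 76.9 FPKM (log2 difference -1.85, SE 0.050, adjusted p = 1.3e-11). Proteins of this family bind RNA during cold and clock responses in Arabidopsis. Heavy metal-associated isoprenylated proteins are small metal carriers, of which the gene LOC111370985 fell from 139, 153 and 139.7 to 37.8, 34.1 and 39.4 FPKM (log2 difference -1.93, SE 0.067, adjusted p = 1.5e-10) and LOC111410120 from 113, 125 and 134 to 33.1, 38.7 and 33.5 FPKM (log2 difference -1.79, SE 0.067, adjusted p = 3e-10). A different member, LOC111395797, picked for its step from below 1 FPKM, rose from 0.30, 0.060 and 0.12 to 5.46, 5.71 and 6.99 FPKM (log2 difference 2.60, SE 0.095, adjusted p = 2.3e-10), so this family too moved in both directions. The largest fall of all described genes at 10 FPKM or more was in a gene named after keratin-associated protein 10-8 (LOC111399221), from 17.3, 16.6 and 14.2 to 1.26, 0.97 and 1.50 FPKM (log2 difference -2.93, SE 0.090, adjusted p = 4.5e-11). RICE SALT SENSITIVE 3 (LOC111382660) fell from 60.1, 62.2 and 62.8 to 17.9, 16.1 and 16.1 FPKM (log2 difference -1.83, SE 0.058, adjusted p = 6.5e-11), and a FAM10 family gene (LOC111396649) from 27.4, 28.6 and 25.7 to 6.75, 7.64 and 7.42 FPKM (log2 difference -1.77, SE 0.072, adjusted p = 6.2e-10).

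Among the largest rises were also genes outside these pathways. Nicotianamine synthase makes a metal chelator, and its gene (LOC111409892) rose from 0.080, 0.17 and 0.17 to 10.8, 11.3 and 10.2 FPKM (log2 difference 3.37, SE 0.072, adjusted p = 1.3e-12). ACAULIS5 (LOC111390174), the synthase of the polyamine thermospermine, rose from 0.91, 0.52 and 0.56 to 12.5, 19.1 and 13.9 FPKM (log2 difference 3.27, SE 0.225, adjusted p = 9e-08). ILI3 (LOC111366554), a small helix-loop-helix protein known from rice, rose from 0.60, 0.96 and 0.47 to 15.7, 16.6 and 14.6 FPKM (log2 difference 3.32, SE 0.119, adjusted p = 2e-10). UDP-glycosyltransferase 90A1 (LOC111409332) rose from 2.10, 1.76 and 2.02 to 25.3, 26.5 and 25.5 FPKM (log2 difference 3.18, SE 0.057, adjusted p = 3e-13). The first 3 were below 1 FPKM in every library of 21 WAF. In all, 14 genes were below 1 FPKM in each library of 21 WAF and at 5 FPKM or more in each of 26 WAF, and 3 genes did the opposite, by a rule chosen after the values had been seen. The 14 include the leucoanthocyanidin dioxygenase, chalcone synthase and dihydroflavonol 4-reductase genes given above. The opposite 3 were a WRKY40 gene (LOC111371188), a wall-associated receptor kinase 2 gene (LOC111409260) and an uncharacterized gene (LOC111385605). WRKY40 fell from 5.61, 6.01 and 6.32 to 0.92, 0.68 and 0.48 FPKM (log2 difference -2.05, SE 0.101, adjusted p = 3.9e-09).

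**Figure D5:**
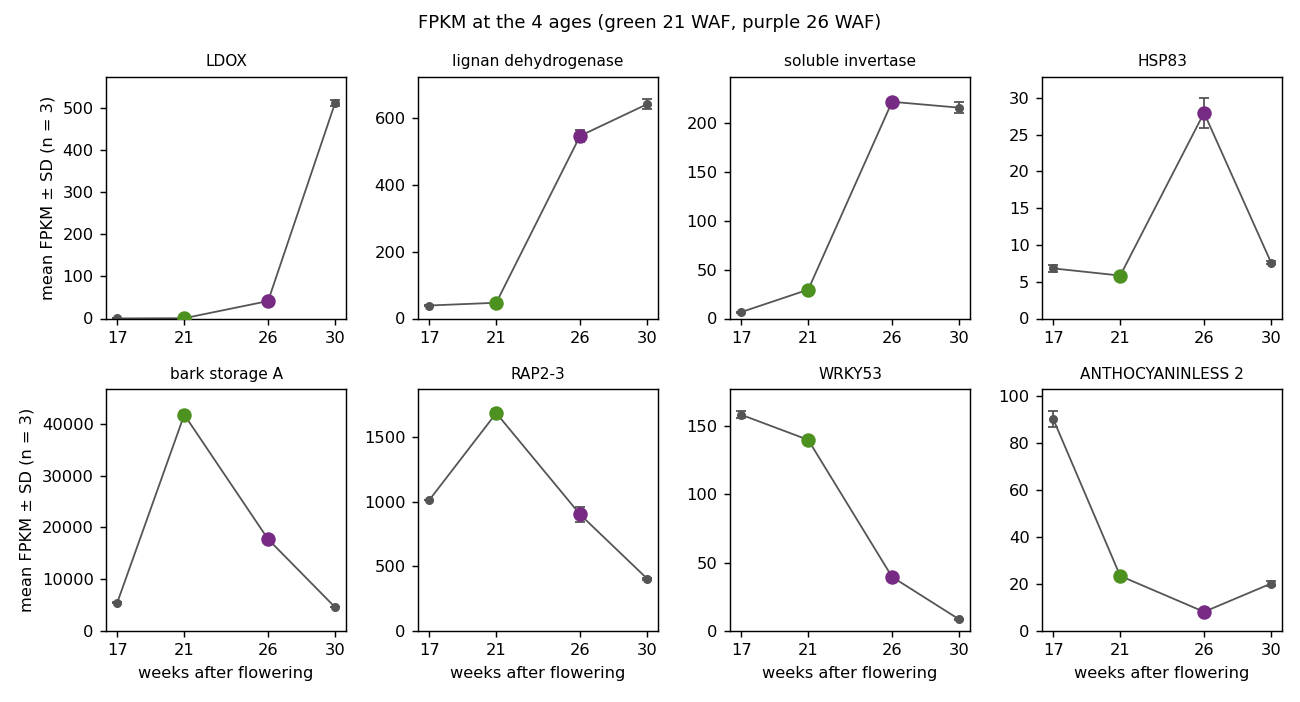
Mean FPKM ± SD of 3 libraries at 17, 21, 26 and 30 WAF for 8 genes, with 21 WAF in green and 26 WAF in purple. LDOX was highest at 30 WAF, invertase had means of 222 FPKM at 26 WAF and 216 FPKM at 30 WAF, HSP83 was highest at 26 WAF, and bark storage protein A and RAP2-3 were highest at 21 WAF.

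NAC factors regulate ripening and senescence in several species, and 23 (35.9%) of 64 tested genes rose and 18 (28.1%) fell. NAC2 (LOC111401102) rose from 69.7, 69.5 and 68.5 to 146, 143 and 144 FPKM (log2 difference 1.05, SE 0.036, adjusted p = 1.3e-10), and NAC90 (LOC111381277) fell from 218, 204 and 209 to 89.97, 87.1 and 84.8 FPKM (log2 difference -1.26, SE 0.040, adjusted p = 5.7e-11). Of 78 tested MYB factors 13 (16.7%) rose and 33 (42.3%) fell. MYB8 (LOC111407653), the most abundant, fell from 532, 519 and 526 to 372, 369 and 375 FPKM (log2 difference -0.50, SE 0.026, adjusted p = 7.4e-09), and MYB16 (LOC111368629), a regulator of the cuticle in Arabidopsis, fell from 6.94, 7.51 and 6.44 to 1.59, 1.75 and 1.79 FPKM (log2 difference -1.55, SE 0.082, adjusted p = 7.4e-09) beside the lower cuticle genes. A pair of genes for the myb-related protein 306 moved apart: LOC111379100 rose from 174, 167 and 161 to 334, 319 and 332 FPKM (log2 difference 0.97, SE 0.056, adjusted p = 1.7e-08), and LOC111405258 fell from 133, 141 and 137 to 70.6, 74.9 and 77.1 FPKM (log2 difference -0.88, SE 0.033, adjusted p = 3.3e-10).

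Shares of bHLH factors were near those of all genes: of 84 tested, 20 (23.8%) rose and 30 (35.7%) fell, or 25 and 26 with median-of-ratios scaling. The bHLH75 gene (LOC111399002) rose from 166, 166 and 166 to 353, 354 and 358 FPKM (log2 difference 1.09, SE 0.021, adjusted p = 6.3e-13). MADS-box factors set organ identity, and with the SPL factors 11 of 56 tested genes rose and 31 fell. The AGAMOUS genes, whose relatives control carpel and fruit identity, rose against the direction of their list. The more abundant one (LOC111412195) went from 360.0, 377 and 380.5 to 556, 549 and 568 FPKM (log2 difference 0.58, SE 0.028, adjusted p = 3.3e-09) and the other (LOC111373696) from 203, 205 and 204 to 355, 343 and 350.4 FPKM (log2 difference 0.77, SE 0.029, adjusted p = 2.7e-10). AGL8 (LOC111400936), named after the FRUITFULL gene of Arabidopsis, fell from 16.4, 15.7 and 16.6 to 8.44, 7.65 and 8.96 FPKM (log2 difference -0.89, SE 0.067, adjusted p = 2.1e-07).

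Clock genes follow the hour of day, and the labels give no hour of sampling. Age, month and hour cannot be told apart for them, as for every gene above. Of 17 tested genes on the list of morning clock genes 8 rose and 8 fell. Of 25 on the list of evening clock genes 9 (36.00%) rose and 10 (40.00%) fell, or 11 and 10 with median-of-ratios scaling. The lists follow gene descriptions, the evening list also holds genes of the day, and the hour at which each gene peaks in olive was not tested. LNK1 (LOC111378437), a coactivator of the clock, rose from 11.2, 11.2 and 11.1 to 20.5, 21.1 and 20.1 FPKM (log2 difference 0.82, SE 0.049, adjusted p = 2.2e-08). Pseudo-response regulators repress the morning genes, and all 3 of the largest falls on the evening list belong to them. APRR7 (LOC111376891) fell from 70.5, 66.6 and 67.3 to 30.8, 32.2 and 32.7 FPKM (log2 difference -1.07, SE 0.041, adjusted p = 3.2e-10) and APRR5 (LOC111405660) from 11.2, 12.5 and 12.1 to 5.14, 5.41 and 4.91 FPKM (log2 difference -1.07, SE 0.052, adjusted p = 3.5e-09). GIGANTEA (LOC111372238), a clock and flowering regulator, rose from 53.9, 53.8 and 54.04 to 70.05, 72.5 and 69.1 FPKM (log2 difference 0.38, SE 0.031, adjusted p = 4.4e-07). None of these genes had overlapping libraries between ages.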

How the data were processed

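RNA of olive mesocarp was sequenced in 12 libraries, 3 each at 17, 21, 26 and 30 WAF, grouped by the labels. The authors deposited 1 table of FPKM per gene and library, from which all values here were computed. The submitters' processing notes name RSEM, Bowtie2 2.2.5, HISAT2 2.0.4 and StringTie 1.0.4, with no role for each. Not given in the sources used here were the genome build, the annotation and the strand setting. Reads of overlapping or antisense genes can therefore not be separated. Without counts, depth is unknown and no counting interval is given.

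Genes with at least 1 FPKM in at least 3 of the 12 libraries were tested with limma 3.58.1 (R 4.3.3) on log2(FPKM + 1), with 4 age means over 12 libraries and a variance trend. The contrast was 26 minus 21 WAF, with Benjamini-Hochberg adjustment over 26131 genes and a threshold of 0.05. The script was tested on simulated data. Gene names were those in the table, and 37991 of 51008 genes carried an ID found in the RefSeq gene table of assembly O_europaea_v1. The members and lists were chosen with earlier results of these data known.

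Genes were named by a rule. It takes the 15 largest rises and 15 largest falls (at least 10 FPKM at the higher age, no overlap of libraries, an informative description) and the 10 most abundant genes at each age. From each list it takes the 3 most abundant members and the 3 largest rises and falls (at least 5 FPKM at the higher age). Not every gene under the rule is printed, and genes added after their values were seen are marked. Alternatives were another pseudocount, no filter, a mean of at least 5 FPKM, TPM scaling, median-of-ratios scaling, the 6 libraries alone, a replicate block, no variance trend, and each library left out.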

Additional observations from a re-analysis of the deposited data

How the results depend on the processing

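With FPKM as deposited 6064 genes were higher and 8602 lower. The counts were 6048 and 8545 with a pseudocount of 0.1, 6314 and 8893 without the filter (46335 genes tested), 4811 and 5905 with a mean of at least 5 FPKM (16697 genes), 6487 and 7860 with TPM scaling, 7643 and 6673 with median-of-ratios scaling, 6065 and 8604 with the 6 libraries alone, and 5988 and 8577 with no variance trend. With each library left out in turn, 5565 to 5747 genes were higher and 7595 to 8154 lower. Median-of-ratios scaling moved the median of all genes from -0.06 to 0.01, so changes of small size depend on the scaling. The letters of the libraries mark no shared source in the labels, and same-letter libraries did not deviate together (correlations 0.074, -0.001 and -0.08 for A, B and C), so pairing was not established. A replicate block gave 5993 higher and 8463 lower. With a mean of at least 5 FPKM, which tests fewer genes, the rises were 10 for beta-glucosidases and phenol oxidation and 26 for heat shock proteins, and the falls 28 for NLR-type receptors, 21 for MYB factors and 9 for lignin and secondary walls. Other counts of lists that this filter moved by over 1.5 times were, against those in the text, rises of 3 for phenylpropanoid core genes, 4 for chlorophyll breakdown, 19 for ethylene response factors, 4 for jasmonate, 3 for NLR-type receptors, 7 for MYB, 13 for bHLH and 6 for MADS-box factors, 5 for cuticle and 0 for HD-ZIP IV genes. The falls were 2 for flavonoids, 3 for beta-glucosidases and phenol oxidation, 7 for pectin degradation, 3 for beta-galactosidases, 3 for lipases, 1 for the Calvin cycle, 7 for starch, 5 for morning clock genes, and 1 each for seed storage and phloem proteins. Without the filter the expansin falls were 3, the ethylene rises 8 and the HD-ZIP IV rises 2. Medians of lists are over the genes that passed the filter. Without it they were 0.07 for flavonoids, 0.02 for lignans, 0.02 for expansins, 0.01 for iridoids and -0.12 for WRKY factors, and with a mean of at least 5 FPKM 0.96, 1.03, 1.65, 0.24 and -0.27. Under median-of-ratios scaling the falls were 8 for pectin degradation, 0 for expansins, 2 for plastid fatty acid synthesis, 4 for triacylglycerol assembly, 3 for chlorophyll breakdown, 7 for starch, 3 for the proteasome and 3 for oxidative stress enzymes, and the rises 1 for bark storage proteins, 9 for chlorophyll synthesis, 19 for ribosomal proteins and 2 for HD-ZIP IV genes. Under TPM scaling the falls were 5 for triacylglycerol assembly, and the HD-ZIP IV rises were 2, as with the 6 libraries alone and with no variance trend. The expansin falls were 2 with a pseudocount of 0.1 or no variance trend. The log2 difference of diacylglycerol acyltransferase 1A ran from -0.009 to 0.026 with each library left out, below 0 without library C of 21 WAF or B of 26 WAF (-0.003). No other gene printed here turned its direction under these alternatives.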

Other observations

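Further gene groups of the flesh were read at 26 against 21 WAF, beside the 23.2% higher and 32.9% lower among all tested genes. Endoglucanases, which cut the backbone of cellulose-like glucans, rose in 6 of 8 tested genes and fell in 0. Genes of cellulose synthesis rose in 8 of 15 tested genes (53.3%) and fell in 1 (6.67%). For carotenoids, the yellow and orange plastid pigments, 10 of 26 tested genes (38.5%) rose and 3 (11.5%) fell. Lipoxygenase pathway genes, whose products include volatiles of olive oil, rose in 4 (30.8%) and fell in 7 (53.8%) of 13 tested genes.

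Other groups were less one-sided. Among them cytokinin genes, aquaporins and pathogenesis-related proteins rose more often and fell less often than all tested genes. Auxin response genes rose in 23 (24.7%) and fell in 39 (41.9%) of 93 tested genes. Gibberellin genes rose in 32.3% and fell in 38.7% of 31 tested genes, cytokinin genes in 37.00% and 22.2% of 27, and aquaporins, the water channels of cell membranes, in 35.3% and 29.4% of 34. Pathogenesis-related proteins rose in 38.2% and fell in 31.6% of 76. Histone and DNA replication genes, which mark dividing cells and have near-identical copies, rose in 24.6% and fell in 31.9% of 69 tested genes, near the shares of all genes.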
